A study of Mus musculus with 6 samples.

Results

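The genes described here make, bind, break down and sense retinoic acid in mouse embryoid bodies, aggregates of differentiating embryonic stem cells. The set holds 9 genes (Stra6, Dhrs3, Aldh1a2, Crabp1, Crabp2, Cyp26a1, Cyp26b1, Rara and Rarb) of 20805 named genes on the array. They were taken through the accession that each array probe carries, which gave 11 probes of 55681. Stem cells with Tet1, Tet2 and Tet3 knocked out (TKO), in the independent lines TKO_26 and TKO_29, were compared with 1 wild-type (WT) line. All were of mixed 129/C57BL6 background and were differentiated for 10 days, 2 in hanging drops and 8 in suspension, without the self-renewal factor LIF; the labels name no added retinoic acid. Each line was measured on 2 one-colour arrays. The submitters call these technical replicas but do not say whether a pair shares its RNA or its culture. They were treated as technical here, so there were 2 TKO lines and 1 WT line, and SEs and p-values over arrays cover the spread within a line at most.

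Retinoic acid is a small signal made from vitamin A. Retinol travels in blood bound to the carrier RBP4 and enters cells through the membrane receptor STRA6. It is oxidised to retinal, which DHRS3 can turn back into retinol, and ALDH1A2, the main such enzyme of the early embryo, oxidises retinal to retinoic acid. CRABP1 and CRABP2 bind retinoic acid in the cell, and the cytochromes CYP26A1 and CYP26B1 inactivate it. The receptors RARA and RARB act with RXR partners on pairs of short DNA elements in the same orientation, and Rarb and Cyp26a1 are long known as direct targets. In embryos the signal patterns the hindbrain, the somites and the heart, in part through Hox genes.

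RefSeq promoter windows (assembly GRCm38.p6, 250 bases before to 50 after an annotated start) were given for 8 of the 9 genes, 16 windows in all; none was given for Crabp2. They were searched on both strands for direct repeats of 6-base elements. An element could read AGGTCA, the common form, or its variant AGTTCA, or the form GGGTCA, or the form GGTTCA, and the pair could mix them. With a spacer of 5 bases the repeat stood in 2 of the members' windows, those of Rarb and Cyp26a1, against 0.0974% of 32841 windows of all genes. Both genes are long known as direct targets, so this is a description and no test. No member window held the repeat with a spacer of 2 bases (0.268% of all windows) or 1 base (0.222%). The 2 stretches are shown because they hold the repeat; of their genes, Rarb fell and Cyp26a1 was not called, as described below. Both run 5′ to 3′ on the strand of the gene, and capitals mark the 6-base elements of the repeat. A single element outside the repeat, such as GGGTCA in the Rarb stretch, is left in lower case.
Rarb, chr14:16575477-16575589, minus strand: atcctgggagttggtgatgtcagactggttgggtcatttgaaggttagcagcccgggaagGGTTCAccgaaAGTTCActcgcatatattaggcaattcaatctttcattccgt
Cyp26a1, chr19:37697716-37697807, plus strand: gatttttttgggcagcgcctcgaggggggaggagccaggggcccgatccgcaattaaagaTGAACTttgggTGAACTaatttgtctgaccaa
The Rarb repeat runs from 53 to 37 bases before the start and holds 1 CpG. The Cyp26a1 repeat lies on the opposite strand from the gene, from 32 to 16 bases before the start, and holds no CpG (0).

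CpG is the dinucleotide at which mammalian DNA is methylated and which TET enzymes act on. The members' windows differed widely in it. The Aldh1a2 window held 50 CpG, at percentile 99.1 of all windows, that of Cyp26a1 held 26 and that of Rarb 17. The Cyp26b1 window held 9, the Crabp1 window 17, the 3 windows of Dhrs3 9 to 21, the 4 of Rara 5 to 21 and the 4 of Stra6 5 to 10. The median was 7 over all windows. DNA methylation was not analysed here.

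**Figure D1:**
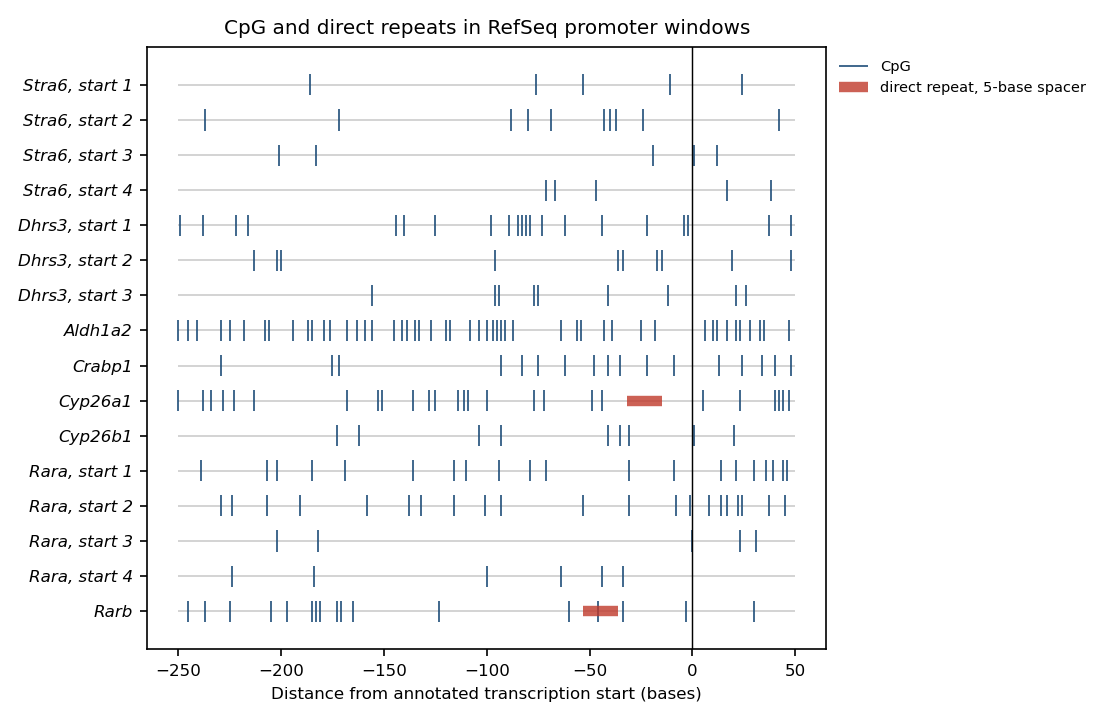
CpG dinucleotides (blue ticks) and direct repeats with a 5-base spacer (red bars) in the 16 RefSeq promoter windows of 8 members, by distance in bases from the annotated start. Ticks are densest in the Aldh1a2 window, with 50, and red bars appear only in the Cyp26a1 and Rarb windows.

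Signals below are log2 processed signals relative to each array's 75th percentile, so that 0 is that percentile. The level of a single gene is compared between groups for 1 probe at a time, not between probes. Summed signals of marker lists, averaged probes and the comparison of patterns over the arrays do draw on several probes, and are named as such. The share of spots well above background ran from 38.4% to 55.8% over the arrays. All 11 member probes were well above background on all 6 arrays. Among the targeted genes, the brightest Tet1 probe differed from WT by -1.02 in TKO_26 and -1.69 in TKO_29, while a dimmer Tet1 probe, above background on all arrays, differed by -0.08 and 0.23 without passing. The brightest Tet2 probe differed by -1.09 and -1.90. The brightest Tet3 probe differed by 1.05 in TKO_26 and -0.62 in TKO_29 and passed in neither, and the other Tet3 probes had negative differences in both. The probes' places relative to the deletions are not known here, so they check the labels only in part. Of 77 marker genes in 6 lists of embryoid body cell types, 67 had signal well above background in WT, on each of its arrays. All arrays shared 1 slide, with WT in one column and TKO in the next, so slide position and genotype cannot be told apart. A gene "fell" or "rose" only where TKO_26 and TKO_29 each differed from WT at least 2-fold the same way with an adjusted p under 0.05 (limma, Benjamini-Hochberg). Both comparisons share the WT arrays.

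Of the 9 members, 3 fell and none (0) rose: the synthesis enzyme gene Aldh1a2, the breakdown enzyme gene Cyp26b1 and the receptor gene Rarb. Among all 21421 genes and features tested, 6.59% fell and 4.05% rose, 10.6% in all. Taken singly, TKO_26 had 3 members lower and 0 higher, against 7.79% and 5.6% of all features (13.4% in all), and TKO_29 had 3 lower and 0 higher, against 11.2% and 8.16% (19.4% in all). The median of the members' mean differences was -0.44, and that of all features was -0.04. The other 6 differed less than 2-fold in each line: Crabp1 and Stra6 had negative differences, Crabp2 and Dhrs3 positive ones, and Cyp26a1 and Rara lay close to WT. In bulk RNA, fewer cells of a type and less RNA per cell cannot be told apart. On line averages, which count each line once (WT n = 1, TKO n = 2), none of the 9 (0) passed, with limma adjusted p from 0.0616 to 0.925 and 3 members at an unadjusted p under 0.05; by that test 0.752% of all features were lower and 0.154% higher, 0.906% in all.

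**Figure D2:**
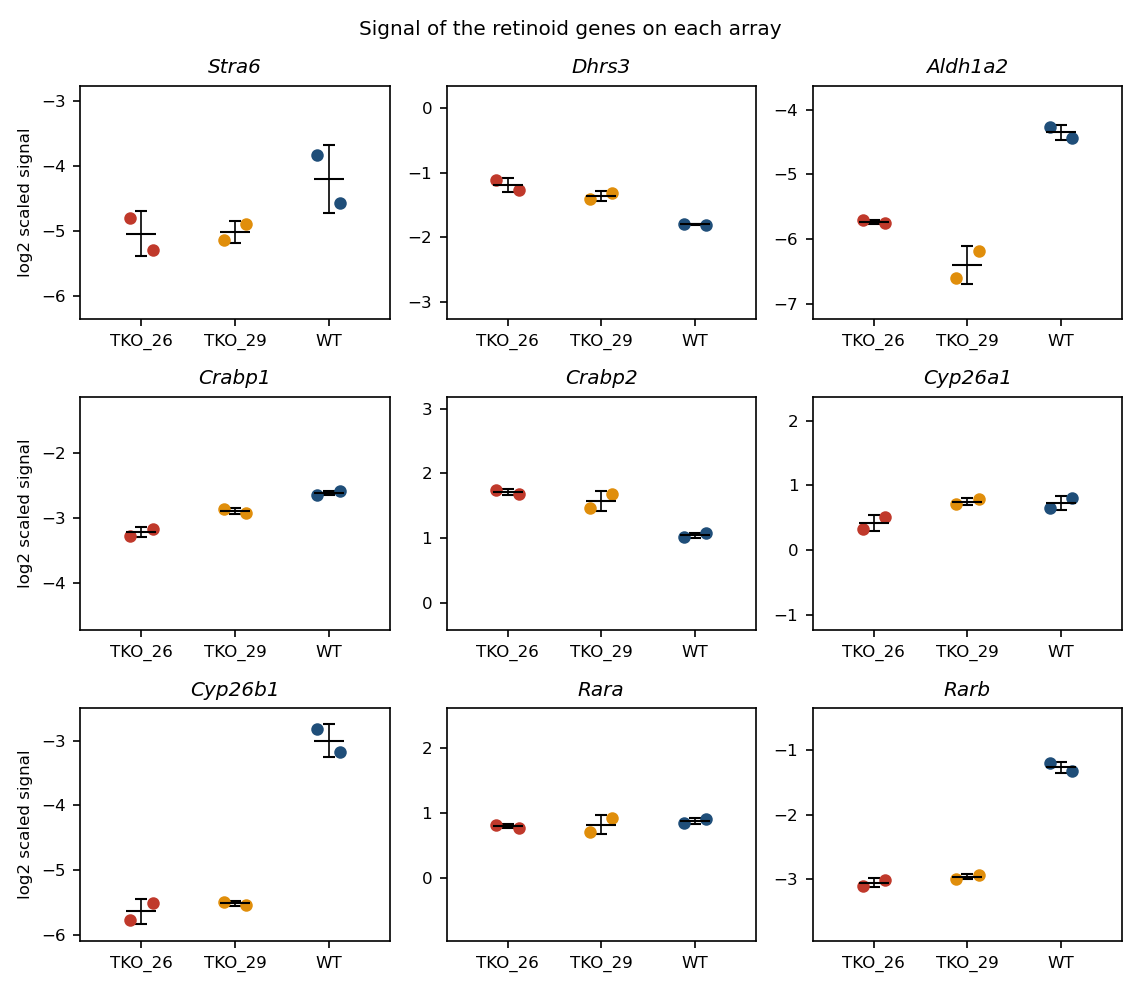
Log2 scaled signal of each retinoid gene on every array, by line (TKO_26, TKO_29, WT); coloured points are arrays, black lines and bars the mean and SD of 2 arrays, and every panel spans the same log2 range. The TKO points of Aldh1a2, Cyp26b1 and Rarb lie far below the WT points, while those of Cyp26a1 and Rara lie near them.

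Uptake of retinol and its recovery from retinal showed no call. Stra6, the retinol receptor, had log2 signals of -4.80 and -5.29 in TKO_26 and -5.13 and -4.90 in TKO_29, against -3.83 and -4.58 in WT. All TKO arrays were below both WT arrays, but the WT arrays lay far apart. The difference was -0.84 ± 0.31 in TKO_26 (SE; limma adjusted p = 0.123) and -0.81 ± 0.31 in TKO_29 (adjusted p = 0.0983), and neither passed. It was -0.47 and -0.44 without WT replicate 1 and -1.21 and -1.18 without WT replicate 2, again without passing (adjusted p = 0.0752 and 0.0572 without WT replicate 2).

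Dhrs3, the retinal reductase, had -1.12 and -1.26 in TKO_26 and -1.41 and -1.31 in TKO_29, against -1.79 and -1.81 in WT. Every TKO array was above both WT arrays. The difference was 0.61 in TKO_26 (95% confidence interval 0.29 to 0.93; limma adjusted p = 0.0268) and 0.44 in TKO_29 (0.12 to 0.76; adjusted p = 0.0470), a 1.53-fold and 1.36-fold higher signal, short of the 2-fold limit. The TKO_29 adjusted p rose to 0.0537 with normexp background correction and 0.0762 in the authors' deposited matrix. Without the filter on dim probes it was 0.164 in TKO_26 and 0.192 in TKO_29. With the replicate number as a block it was 0.0688 and 0.0979.

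Aldh1a2, which makes retinoic acid, fell. Its log2 signals were -5.71 and -5.75 in TKO_26 and -6.60 and -6.19 in TKO_29, against -4.27 and -4.43 in WT. The 3 lines did not overlap, with WT highest and TKO_29 lowest. The gene was 2.60-fold lower in TKO_26 (log2 difference -1.38 ± 0.18, SE; limma adjusted p = 0.00825) and 4.13-fold lower in TKO_29 (-2.05 ± 0.18; adjusted p = 0.00256). The TKO lines differed from each other by -0.67 (interval -1.13 to -0.20), which did not pass over all features (adjusted p = 0.136). The TKO_26 call of Aldh1a2 was lost without WT replicate 1 (-1.30, adjusted p = 0.0640), without the filter on dim probes (adjusted p = 0.0572) and with normexp background correction (-0.92).

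The genes of the binding proteins stayed under 2-fold, with differences of opposite sign. Crabp1 had -3.28 and -3.17 in TKO_26 and -2.86 and -2.92 in TKO_29, against -2.64 and -2.59 in WT. All lines were separate, TKO_26 lowest. The differences were -0.61 (limma adjusted p = 0.0242) in TKO_26 and -0.28 (adjusted p = 0.117) in TKO_29, neither reaching 2-fold. The TKO_26 limma adjusted p of Crabp1 rose to 0.0568 with normexp background correction and 0.0803 in the authors' deposited matrix. Without the filter on dim probes it was 0.158. Crabp2, which carries retinoic acid to its receptors, had 1.74 and 1.68 in TKO_26 and 1.46 and 1.69 in TKO_29, against 1.02 and 1.07 in WT. The TKO arrays were above WT and overlapped each other. The difference was 0.66 in TKO_26 (interval 0.32 to 1.01; limma adjusted p = 0.0266) and 0.53 in TKO_29 (0.19 to 0.87; adjusted p = 0.0353). The Crabp2 spot was saturated on TKO_29 replicate 1. The TKO_29 difference was 0.64 without that array and 0.42 without TKO_29 replicate 2, each resting on 1 TKO_29 array and under 2-fold. In the authors' deposited matrix Crabp2 differed by 0.58 in TKO_26 (limma adjusted p = 0.145) and 1.04 in TKO_29 (adjusted p = 0.0209). With normexp it differed by 0.60 (adjusted p = 0.277) and 1.21 (adjusted p = 0.0508). Without the filter on dim probes the adjusted p was 0.155 and 0.156.

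The breakdown enzymes parted. Cyp26b1 had -5.78 and -5.50 in TKO_26 and -5.49 and -5.54 in TKO_29, against -2.82 and -3.18 in WT. The TKO arrays overlapped each other and all lay over 2 log2 units below WT. The gene fell 6.24-fold in TKO_26 (-2.64 ± 0.18, SE; limma adjusted p = 0.00162) and 5.72-fold in TKO_29 (-2.52 ± 0.18; adjusted p = 0.00170), the largest difference among the 9. Cyp26a1 had 0.33 and 0.51 in TKO_26 and 0.72 and 0.79 in TKO_29, against 0.65 and 0.80 in WT. TKO_26 was just below WT and TKO_29 overlapped it. The differences were -0.30 (interval -0.65 to 0.04; limma adjusted p = 0.173) in TKO_26 and 0.03 (-0.32 to 0.37; adjusted p = 0.896) in TKO_29, so that both intervals stop short of 2-fold.

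The receptors also parted. Rarb, on its brighter probe, had -3.10 and -3.00 in TKO_26 and -2.99 and -2.93 in TKO_29, against -1.21 and -1.33 in WT. All TKO arrays lay close together and far below WT. The fall was 3.43-fold in TKO_26 (-1.78 ± 0.12, SE; limma adjusted p = 0.00156) and 3.22-fold in TKO_29 (-1.69 ± 0.12; adjusted p = 0.00163). The dimmer Rarb probe did not show it: it had -4.97 and -6.72 in TKO_26 and -5.48 and -4.84 in TKO_29, against -5.20 and -4.90 in WT. Its groups overlapped, and the differences of -0.79 (interval -2.38 to 0.79) and -0.11 (-1.69 to 1.47) were wide. Averaging the 2 probes gave -0.90 in TKO_29 (adjusted p = 0.0759), and the Rarb call was lost.

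Rara, whose small differences changed sign under other scalings, had on its brighter probe 0.82 and 0.78 in TKO_26 and 0.72 and 0.93 in TKO_29, against 0.84 and 0.91 in WT. TKO_29 overlapped WT and TKO_26 lay just below it. The difference was -0.08 (interval -0.42 to 0.26) in TKO_26 and -0.05 (-0.39 to 0.29) in TKO_29, with limma adjusted p of 0.703 and 0.778. Its other probe differed by -0.49 (-1.36 to 0.39) and -0.62 (-1.49 to 0.25), again without passing.

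**Figure D3:**
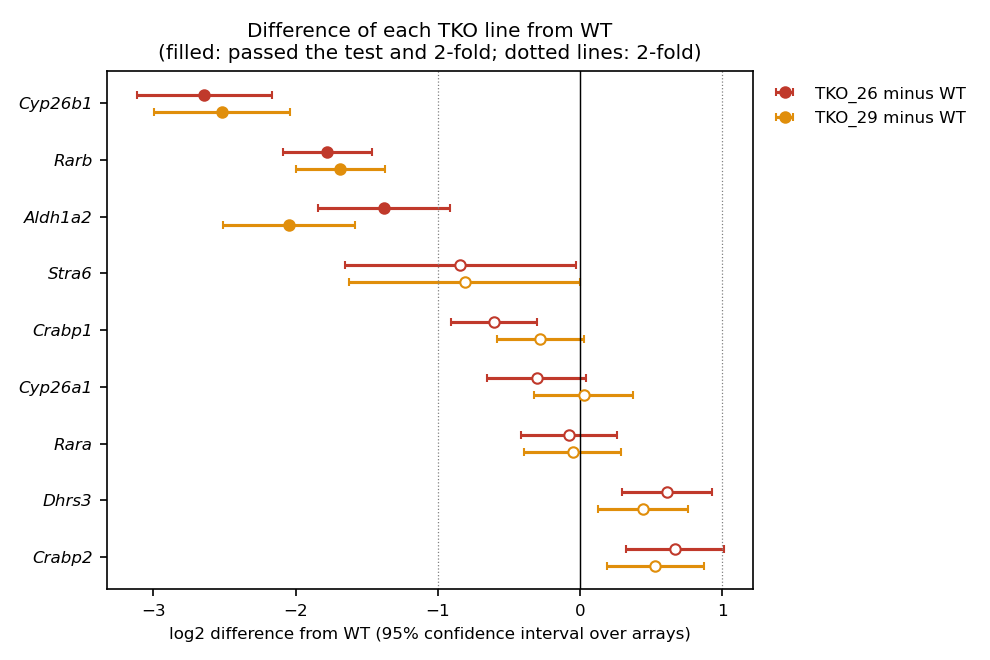
Log2 difference from WT of each member in TKO_26 (red) and TKO_29 (orange), with 95% confidence intervals over arrays; filled points passed the test and the 2-fold limit, marked by dotted lines. Cyp26b1, Rarb and Aldh1a2 are filled in both lines, and the intervals of Cyp26a1 and Rara lie inside the dotted lines.

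Set against the promoter stretches above, the members with the repeat did not share a direction: Rarb fell and Cyp26a1 differed by less than 2-fold. The repeat stood in windows of 31 genes in all, of which 6 were tested here. Besides Rarb, only the embryonic globin gene Hbb-y fell and none (0) rose, against 6.59% and 4.05% of all features. The median of the mean differences was -0.43 over the 6 genes and -0.04 over all features. Rarb and Cyp26a1 are among the 6, which are too few to tell from all features.

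Between the TKO lines no member (0 of 9) and no feature (0 of 21421, 0%) passed in the limma fit, with adjusted p from 0.136 to 0.961 for the members. At an unadjusted p under 0.05, 2 members (Aldh1a2 and Crabp1) and 4787 features differed, and other settings called up to 1515 features, without TKO_26 replicate 2. All 4 TKO arrays lay below both WT arrays for 5 members and above them for 2, while 25.5% and 24.9% of all features did so.

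The pattern of Cyp26b1 was compared with 11538 other named genes above background on all arrays, by the root mean square difference over the 6 arrays after each gene's mean was subtracted. The nearest were Rprm (0.081 log2 units), Pamr1 (0.108) and Gfra2 (0.125). The difference from WT was -2.63 in TKO_26 and -2.40 in TKO_29 for Rprm, -2.68 and -2.45 for Pamr1, and -2.47 and -2.45 for Gfra2, the gene of a neurotrophic factor receptor. No member rose (0), so no pattern of the opposite direction was sought.

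Of the other genes of the pathway, 49 of 63 listed were tested, of which 14 fell and 4 rose, against 6.59% and 4.05% of all features; their median mean difference was -0.50, against -0.04 over all features. Among 16 genes that carry, store or convert retinoids, 2 fell and none (0) rose, too few to tell from the 6.59% and 4.05% of all features. Rbp4, the retinol carrier of blood, fell 18.4-fold, with differences of -4.10 in TKO_26 and -4.30 in TKO_29. Ttr, transthyretin, which travels with RBP4, fell 40.4-fold. Both are also made by visceral endoderm and stand in the endoderm list, 11 of whose 15 members fell and none (0) rose. The 11 include Rbp4 and Ttr, whose signals also enter the sum given next. The summed linear signal of that list, in units of the array's 75th percentile, was 2.16 to 2.33 on TKO arrays and 7.15 to 7.36 on WT arrays, and Afp and Apob were above background on no TKO array (0); the part of these cells in the retinoid results was not tested.

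Of the same 16 genes, 10 had negative differences in both lines, 5 positive ones in both and 1 opposite signs. Some of the negative ones were short of a call in both lines. Rdh10, which oxidises retinol, differed by -0.96 in TKO_26 and -0.85 in TKO_29. Aldh1a3, another retinal dehydrogenase, differed by -0.95 and -0.97. Fabp5, which can also bind retinoic acid, differed by -0.99 and -0.90. All 3 had limma adjusted p under 0.05 in both lines and missed the 2-fold limit in each. These 3 genes were chosen after their values were seen, as was Rdh11, a retinal reductase gene of the opposite sign, which differed by 0.38 (adjusted p = 0.0689) and 0.89 (adjusted p = 0.00560).

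Among 13 receptors and cofactors, 1 fell and 2 rose, likewise too few to tell from the 6.59% and 4.05% of all features. Nr2f1, an orphan receptor also known as COUP-TF1 that retinoic acid induces, fell 9.55-fold, with a mean difference of -3.26 on each of its 2 probes. Rarg, the other retinoic acid receptor, rose 2.15-fold, with 1.05 in TKO_26 (limma adjusted p = 0.00934) and 1.16 in TKO_29 (adjusted p = 0.00568). Rxra, an RXR partner, rose 2.21-fold on its brighter probe, while its other probe differed by 0.57 and -0.53. Leaving out each of the 6 arrays in turn ended the Rxra call every time. That of Rarg was lost without either WT array (1.07 and 1.04 in TKO_26) with normexp or the authors' deposited matrix (0.82 each) and without the filter on dim probes (adjusted p = 0.0697).

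Genes known to respond to retinoic acid formed the longest list. Of 24 tested, 12 fell and 2 rose, against 6.59% and 4.05% of all features, and the median mean difference was -1.08, against -0.04 over all features. Rarres2, which encodes the secreted protein chemerin, had -5.62 and -5.24 in TKO_26 and -5.07 and -5.53 in TKO_29, against -2.01 and -1.96 in WT, a 10.4-fold fall. Meis1, a homeobox cofactor of Hox proteins, fell 5.90-fold and Tshz1, a zinc finger gene, fell 5.81-fold. Hoxb2 and Hoxb4 fell at least 10.4-fold and 11.7-fold, above background on 3 of 4 TKO arrays, and Hoxb5, above background on no TKO array (0), at least 8.88-fold; the Hoxb5 call was lost without either WT array, without either TKO_29 array, without the filter on dim probes (adjusted p = 0.0903) and with the replicate block (adjusted p = 0.0506). Stra8, a gene of meiotic entry that retinoic acid induces, rose at least 5.12-fold and was above background on no WT array (0). The list was drawn from textbook knowledge, but with earlier results of these data known, so its counts are a description and no test. Many of its genes answer to other signals too.

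**Figure D4:**
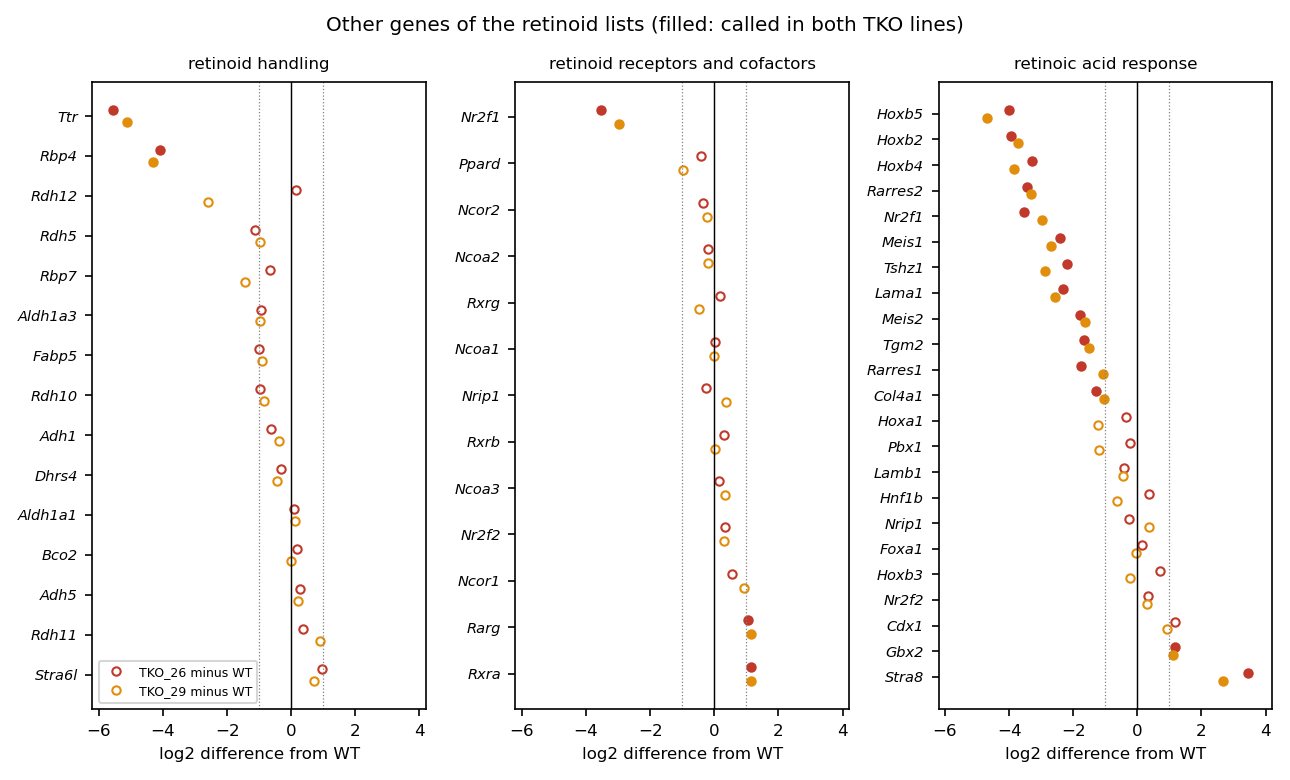
Log2 difference from WT in TKO_26 (red) and TKO_29 (orange) of tested genes of 3 lists, with filled points for genes called in both lines and dotted lines at 2-fold. Most filled points lie left of 0, among them Ttr, Rbp4, Nr2f1 and Hoxb genes, while Rarg, Rxra and Stra8 are filled on the right.

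Marker lists of other cell types of the embryoid body were counted beside these results. Of all features, 6.59% fell and 4.05% rose. Of 11 paraxial, lateral and epicardial mesoderm genes tested, 4 fell and 1 rose, with a summed signal of 0.646 to 0.748 on TKO arrays and 1.48 to 1.52 on WT arrays. Meox1, a somite gene, fell 10.6-fold, Foxc2 fell 9.11-fold and Foxf1, a lateral plate gene, fell 7.63-fold; the TKO_26 call of Meox1 was lost without either WT array (-2.81 and -2.85) and without the filter on dim probes (adjusted p = 0.0511). All 11 cardiac muscle genes fell, with summed signals of 1.75 to 1.96 on TKO arrays and 27.7 to 27.9 on WT arrays. Of 13 mesenchyme and fibroblast genes 8 fell and none (0) rose, with sums of 3.18 to 3.59 on TKO arrays and 5.33 to 6.11 on WT arrays. Of 9 neural genes 1 fell and 1 rose, too few to tell from the shares of all features. Their sums were 4.08 to 8.15 on TKO arrays and 6.07 to 6.70 on WT arrays. Of 12 pluripotency genes 5 rose and none (0) fell, with sums of 13.1 to 20.6 on TKO arrays and 9.89 to 10.5 on WT arrays. The part of these changes in the values of Aldh1a2, Cyp26b1 and Rarb was not tested.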

How the data were processed

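Cy3-labelled RNA was hybridised to 6 one-colour Agilent arrays. Per the file headers, Feature Extraction 10.5.1.1 gave each spot's processed intensity, background-subtracted and detrended within the array, with median spot and background intensities. The deposited matrix is on a log2 scale. Its making is not known here, but each column followed its own array's log2 median signal (Pearson r 0.995 to 1.00 over probes), so its scale and direction were settled and its genes are not centred. Column medians were 6.86 to 6.89, and the replicate 2 columns all had 6.88162.

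Outlier spots were removed (263 probes lost), saturated spots kept and repeated spots averaged. Probes were named through RefSeq accessions (GRCm38.p6; 49.4% had a symbol). Log2 signals were scaled to each array's 75th percentile over 19178 probes above background on all arrays. Probes with both arrays of any line above background were tested, the brightest standing for its gene, with limma 3.58.1 in R 4.3.3: lines with 3 residual degrees of freedom, line averages with 1, where WT is assumed to vary like the TKO lines. A call meant 2-fold and an adjusted p under 0.05 (Benjamini-Hochberg, all features); secondary probes came from a fit of all probes. "At least" folds set dim arrays to the lowest signal above background. The fit was tested on simulated data. Normexp (offset 50) used median signals, since no mean signal was given.

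Members and lists were chosen with earlier results of these data known. Named by rule were all members, up to 8 called genes of each retinoid list by size of difference, up to 3 of each marker list, and the 3 genes nearest in pattern to the member with the largest call; other names were chosen after their values were seen. With so few lines and arrays the precision is low. A gene of the retinoid lists is counted with them but not reported by name or drawn.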

Additional observations from a re-analysis of the deposited data

Results flagged for a closer look

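Results were looked at again where the TKO lines moved in opposite directions from WT. Rdh12, a retinal reductase, had log2 signals of -2.23 and -2.28 in TKO_26 and -5.18 and -4.83 in TKO_29, against -2.45 and -2.36 in WT. TKO_26 lay above both WT arrays and TKO_29 below them, with a difference between the lines of -2.75 (limma adjusted p = 0.0564). Against WT, Rdh12 passed in TKO_29 (-2.60, adjusted p = 0.00121) but not in TKO_26 (0.15, adjusted p = 0.567). Nrip1, a nuclear receptor corepressor gene that retinoic acid induces, had -1.94 and -1.89 in TKO_26 and -1.38 and -1.22 in TKO_29, against -1.79 and -1.51 in WT, and the lines differed by 0.62 (adjusted p = 0.119). Neither difference between the lines passed.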

How the results depend on the processing

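The 3 retinoid members called became 2 with normexp, without a filter on dim probes, with probes averaged and without WT replicate 1; the range over arrays left out in turn was 2 to 3, and 13 to 18 for the 18 other pathway genes. Cyp26b1 kept its call in both lines under every alternative run. Over all features the calls were 2868 for TKO_26, 4148 for TKO_29, 2279 in both, 194 on line averages and 0 between the TKO lines. With normexp they were 1902, 2650, 1484 and 0 on line averages. Without a filter they were 1413, 2552, 1281 and 0, and with signal demanded on all 6 arrays 1501, 2536, 1186 and 0, with 337 between the TKO lines. Line averages gave 1812 calls (37.5% higher, against 17% in the main setting) and the TKO lines 246 with the authors' deposited matrix, 1520 and 483 with a variance trend, 306 on line averages with probes averaged, and 1 between the TKO lines with the percentile over all probes. Left-out arrays gave 1727 (without WT replicate 1) to 3798 for TKO_26, 2126 (without TKO_29 replicate 2) to 4453 for TKO_29, 1423 (without TKO_29 replicate 2) to 2195 for both, 0 to 597 on line averages and 0 to 1515 between the TKO lines. Values near 0 changed sign: Rara was 0.0070 in TKO_26 and 0.017 in TKO_29 with the percentile over all probes, 0.016 in TKO_26 with normexp and 0.016 with the authors' deposited matrix, and -0.16 to 0.057 in TKO_29 with arrays left out, where Cyp26a1 ranged from -0.054 to 0.10. The median of all features in TKO_29 was -0.088 in the main setting, 0.056 with normexp and 0.072 with the authors' deposited matrix. Causes were not tested. With the replicate number as a block the counts were 2594, 3988 and 2079, with 3 members and 17 other pathway genes. Crabp1, Crabp2 and Dhrs3 then had limma adjusted p of 0.0637, 0.0624 and 0.0688 in TKO_26. Deviations of same-numbered arrays had r of 0.23 (WT with TKO_26), -0.08 (WT with TKO_29) and -0.28 (TKO_26 with TKO_29) over 13255 genes. These values have no common sign and do not settle whether the numbers pair the arrays.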
